A study of Mus musculus with 6 samples.

Results

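The endoplasmic reticulum (ER) chaperone and unfolded protein response genes are a set of 35 genes, chosen by name for their known roles as ER stress sensors, chaperones, folding oxidases, translocon subunits and parts of ER-associated degradation. All 35 were listed among the 13595 genes of the deposited table and all 35 were tested. Poly(A) RNA was sequenced from cultured primary CD31-positive cells, an endothelial isolate made from liver of C57BL6/J mice at 4 weeks of age. Every library came from cells given 100 µM indoxyl sulfate, a tryptophan metabolite that activates the aryl hydrocarbon receptor, and held for 6 hours in hypoxia with nutrients withdrawn. By their labels, the 3 libraries labelled male and the 3 labelled female differ by sex alone. Their cell type markers also differed, as given below. Untreated, DMSO or normoxic cells were not analysed here, so no value below is an effect of the treatment or of hypoxia. The replicates carry the numbers 4, 5 and 6 in both groups, and nothing in the labels says whether they are mice, isolations or wells, so p-values measure only the spread between these libraries, which may be technical.

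Proteins that enter the secretory pathway are threaded into the ER through the SEC61 translocon, folded there by chaperones and disulfide isomerases, and, if they fail to fold, passed back to the cytosol for degradation. When unfolded protein builds up, the sensors IRE1 (encoded by Ern1), PERK (Eif2ak3) and ATF6 start the unfolded protein response. IRE1 splices the Xbp1 mRNA, PERK phosphorylates eIF2alpha and slows translation while ATF4 is made, and ATF6 is cut by the site-1 and site-2 proteases (Mbtps1, Mbtps2) into a transcription factor. Endothelial cells secrete matrix, growth factors and von Willebrand factor, and depend on this machinery. Splicing, phosphorylation and cleavage are not visible in read counts per gene, so the values below are RNA levels only.

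Many of these genes are known targets of ATF6, which binds together with NF-Y at the ER stress response element (ERSE), the letters CCAAT and CCACG separated by 9 bases. RefSeq promoters (build GRCm38.p6, 250 bases before to 50 after the annotated start) were matched for 29 of the 35 members, Ero1l under its current symbol Ero1a. Derl2 had 2 promoters and was counted where either held a motif. An exact ERSE on either strand stood in the promoters of 9 of these 29 members (31%), against 39 of all 32851 promoters of the same length (0.119%). The elements are shown because 9 members share them, and the rule for members did not read promoter letters. Members were chosen by name for known roles in this response, so a high share of its elements is not an independent result. The same holds for the related elements below. The bases of CCAAT and CCACG are in capitals, each element is written 5′ to 3′ in its own direction, and Hsp90b1 held 2.
Hspa5: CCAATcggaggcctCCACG
Hsp90b1, distal: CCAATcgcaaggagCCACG
Hsp90b1, proximal: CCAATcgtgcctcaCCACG
Calr: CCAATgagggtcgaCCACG
Canx: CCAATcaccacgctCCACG
Dnajc3: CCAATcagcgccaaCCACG
Creld2: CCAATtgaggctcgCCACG
Pdia6: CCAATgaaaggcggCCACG
Syvn1: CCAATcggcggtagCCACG
Derl3: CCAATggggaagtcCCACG
The element of Hspa5 lay at chr2:34772025-34772043, from base -65 to -47 relative to the start, and that of Syvn1 at chr19:6046532-6046550, from -44 to -26. The others began between -212 (the distal element of Hsp90b1) and -98 (Pdia6). Those of Calr, Creld2, Derl3 and the proximal one of Hsp90b1 ran opposite to the gene.

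The related ERSE-II, ATTGG and CCACG separated by 1 base, stood in 2 of the 29 members (6.9%) and in 12 of all promoters (0.0365%).
Herpud1: ATTGGgCCACG
Dnajb11: ATTGGcCCACG
The element of Herpud1 lay at chr8:94386377-94386387 and that of Dnajb11 at chr16:22857852-22857862. Herpud1 was also the only matched member with the letters TTGCATCA, a composite site read by ATF4 with C/EBP proteins, which 0.895% of all promoters held. The UPRE core TGACGTGG, read by XBP1, was found in Vcp alone and in 0.676% of all promoters. It overlaps GACGTG, which holds the core letters of a hypoxia response element. GACGTG stood in 6 members, Hspa5, P4hb, Pdia6, Ero1l, Vcp and Ssr1 (20.7%), and in 6.38% of all promoters. Only the full 6 letters were searched, so promoters with a shorter form of the core were not counted. The single boxes were common: CCACG was present in 24 of the 29 members (82.8%) and 32.8% of all promoters, and CCAAT in 21 (72.4%) and 37.4%.

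The 150 bases upstream of the annotated start are shown for 3 genes named in the results below. These are the main chaperone, the member with both an ERSE-II and TTGCATCA, and Ero1l, which differed by at least 2-fold and held GACGTG. The other members that differed by at least 2-fold, Ern1 and Ppp1r15a, held no GACGTG in this window. Capitals mark the ERSE in Hspa5 (chr2:34771940-34772089, plus strand), TTGCATCA and the ERSE-II in Herpud1 (chr8:94386279-94386428, plus strand) and GACGTG read from the opposite strand in Ero1l (chr14:45318573-45318722, minus strand).
Hspa5: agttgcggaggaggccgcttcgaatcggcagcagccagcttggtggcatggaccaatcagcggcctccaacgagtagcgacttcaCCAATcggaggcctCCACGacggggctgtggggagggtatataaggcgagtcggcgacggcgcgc
Herpud1: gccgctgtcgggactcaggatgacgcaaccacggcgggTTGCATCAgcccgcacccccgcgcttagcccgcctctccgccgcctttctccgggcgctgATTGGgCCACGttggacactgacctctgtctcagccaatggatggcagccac
Ero1l: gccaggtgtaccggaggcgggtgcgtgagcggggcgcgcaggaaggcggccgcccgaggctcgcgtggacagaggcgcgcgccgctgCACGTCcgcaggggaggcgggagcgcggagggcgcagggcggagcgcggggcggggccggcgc
A match is a description of letters, not a bound site, and a promoter without a match may hold a variant of the element.

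**Figure D1:**
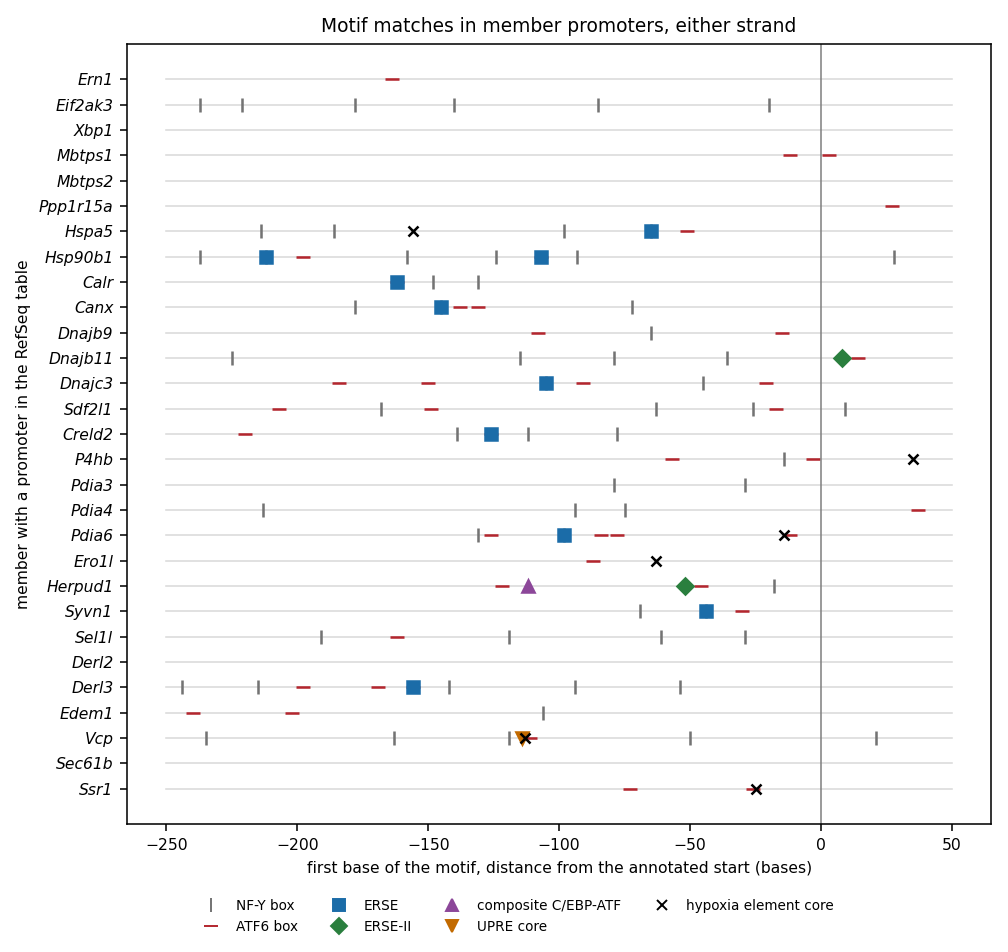
Motif matches in the promoters of the 29 members found in the RefSeq table (rows), by distance in bases of the motif's first base from the annotated start (x axis), on either strand. Only the first of the 2 promoters of Derl2 is drawn, which held none of the motifs. Squares mark the ERSE in 9 members, diamonds the ERSE-II in 2, grey ticks single CCAAT boxes (NF-Y box) and red dashes CCACG boxes (ATF6 box), with the triangles and crosses for the shorter motifs as in the legend. All ERSE matches but the distal one of Hsp90b1 begin within the 162 bases before the start.

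Library totals over the listed genes ran from 22303270 to 31189363 reads, at which 3 reads correspond to a normalized read count of at most 0.142. Xist, the RNA of X inactivation, was at 234 to 324 in the libraries labelled female and at most 0.458 in those labelled male, but the Y-linked Ddx3y, Uty, Eif2s3y and Kdm5d were read in all 6 libraries, at 17.6 or more in those labelled female. Their means there were 91.5%, 89.6%, 51.3% and 54.8% of the male means, and Ddx3y and Uty were not called. The Y-linked genes thus go against the female label, and every direction below is one between libraries so labelled. Markers of cell types also separated the groups. Beside 69.3% of all genes called, 34.6% in each direction, endothelial markers were called lower in the libraries labelled female for 12 of 14 tested genes, with a summed level of 1221 to 1276 against 2411 to 2524, and the CD31 gene Pecam1 had a mean of 73.9 ± 0.540 against 407 ± 16.2 (SD, n = 3). Of the 15 endothelial genes on the list, Cldn5 was at 0 in female 4 and under 1 in every library. Of the 10 sinusoidal markers, 4 were tested, with 1 called higher and 2 lower, and they summed to 51.6 to 52.8 against 502 to 545. The sinusoidal markers Clec4g and Fcgr2b were at 0 in most libraries and held at most 0.142 in any. Smooth muscle and mural markers summed to 2655 to 3376 against 289 to 438 (5 called higher and 3 lower of 9 tested), fibroblast and stellate markers to 944 to 956 against 2675 to 3387 (7 lower of 7), and mesothelial and cholangiocyte markers to 927 to 1011 against 1752 to 2601 (4 higher and 4 lower of 8). Macrophage markers (2 higher and 1 lower of 3 tested) summed to 15.2 to 18.1 against 12.0 to 14.7 and hepatocyte markers (1 lower of 2) to 0.712 to 6.56 against 9.66 to 14.5, with Ptprc, C1qa, C1qb, Alb and Ttr at 0 in some libraries. The part of these markers in the results below was not tested, and fewer cells of a type and less RNA per cell cannot be told apart in bulk samples.

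Of the 35 members, 28 passed the threshold (limma adjusted p under 0.05; 80% of the members, where 69.3% of all 12568 tested genes passed). In the libraries labelled female 21 members were lower (34.6% of all genes were) and 7 were higher (34.6% of all genes were). An absolute log2 fold change under 0.5 was found for 24 members, a size for which the share of all genes is not given here. A difference of at least 2-fold that also passed the test was found for 3 members, Ero1l, Ppp1r15a and Ern1, all lower (12.1% of all genes), and for 0 members in the higher direction (8.51% of all genes; Ppp1r15b came nearest at 0.98). The median log2 fold change of the members was -0.27, against 0.01 over all tested genes. The groups did not overlap for 28 members (74.1% of all genes), with the libraries labelled female below in 22 (37% of all genes) and above in 6 (37.1%). In the authors' deposited table, a false discovery rate under 0.05 was given for 10 members, 8 lower and 2 higher (25.8% of its genes passed), and all 10 passed here in the same direction.

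The member RNAs together made up 2.41%, 2.01% and 2.06% of the libraries male 4, 5 and 6, and 1.62%, 1.65% and 1.63% of female 4, 5 and 6. Ero1l accounted for much of this gap. Without it the shares were 1.64%, 1.51% and 1.53% against 1.38%, 1.40% and 1.36%, which still did not overlap. Male 4 stood apart from the other libraries labelled male. It was the highest of the 3 for 27 members and the lowest for 5 (Ppp1r15a, Sdf2l1, Herpud1, Derl3 and Sec61b), so it widens the spread of that group for most of what follows. This was not particular to the members. Over all tested genes the median SD of log2(value + 1) with the male label was 0.126, and 0.0526 without male 4. The normalized values of male 4 also had the highest total of its group, 1153370 against 1087850 and 1101390. Without male 4, 21 members passed as lower and 10 as higher, while calls over all genes went from 8704 of 12568 to 9113 of 12187. With it left out, Canx, Syvn1 and Sel1l also passed as higher.

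**Figure D2:**
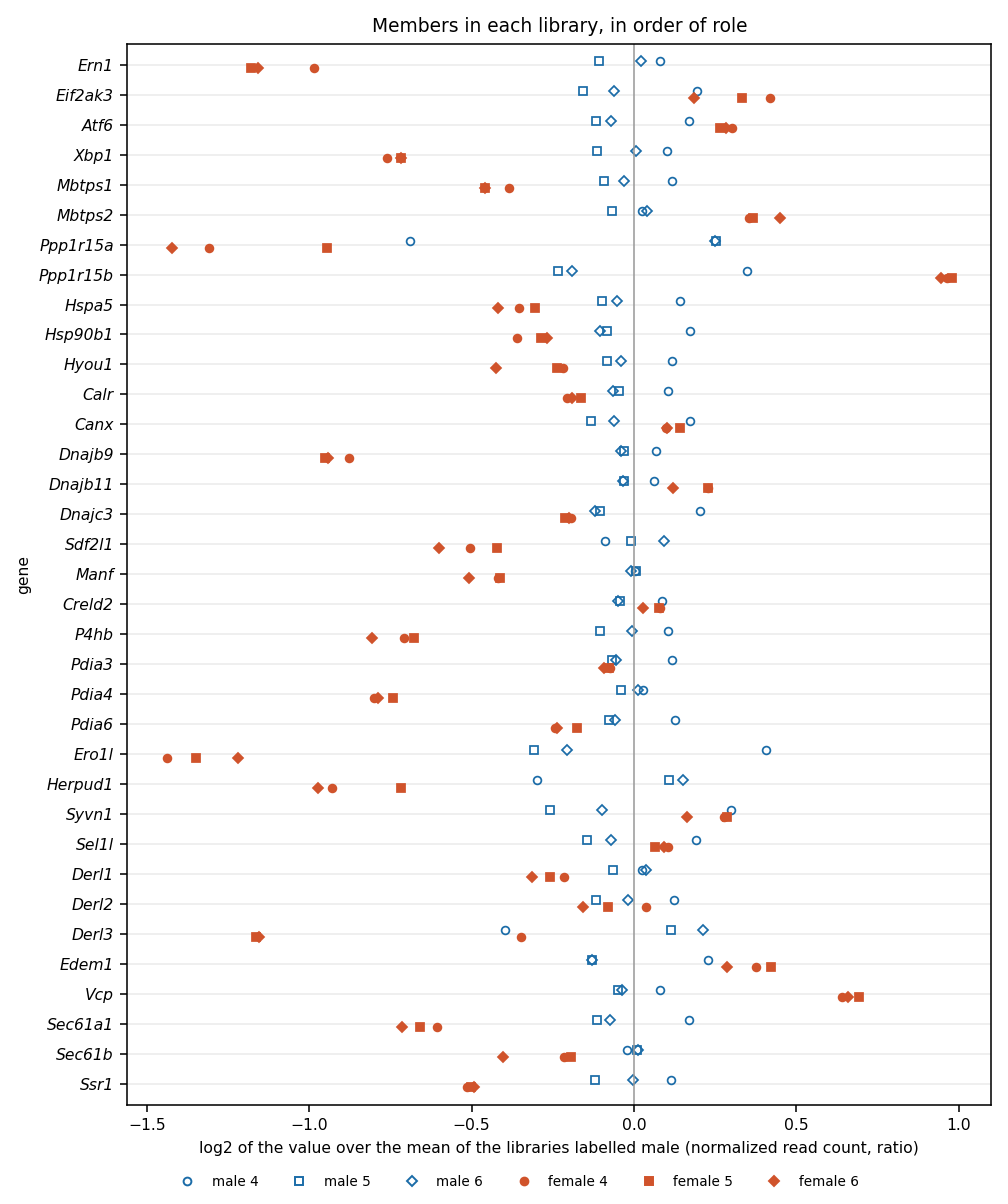
Value of each member in each library, as the log2 ratio to the mean of the libraries labelled male (x axis), with members in order of role (y axis). Open blue symbols are the libraries labelled male and filled orange symbols those labelled female; circles, squares and diamonds are replicates 4, 5 and 6. The libraries labelled female lie below all those labelled male for 22 members, and male 4 (open circle) is the highest of its group for 27.

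The sensors moved in different directions. Ern1, the kinase and nuclease IRE1, was lower in the libraries labelled female, and Atf6 and Eif2ak3 were slightly higher. The normalized read count of Ern1 was 102, 89.5 and 97.9 in male 4, 5 and 6 and 48.7, 42.6 and 43.2 in female 4, 5 and 6. Each library labelled female thus lay below each labelled male, at 46.5% of the male mean. The log2 fold change was -1.09 (SE 0.08, with an adjusted p of 6.18e-06 in limma). Xbp1, whose mRNA IRE1 splices, was at 158, 136 and 148 against 87.1, 89.7 and 89.7. Here too the groups did not overlap, and the log2 fold change was -0.72 (SE 0.07, with an adjusted p of 2.69e-05 in limma).

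Atf6 was at 110, 90.3 and 93.2 in the libraries labelled male and 121, 118 and 119 in those labelled female. The difference was 0.29 on the log2 scale (SE 0.08, with an adjusted p of 0.0124 in limma), with male 4 the closest of its group to the other libraries. Eif2ak3, the kinase PERK, was at 33.3, 26 and 27.8 against 38.8, 36.6 and 33.0. Its groups overlapped through male 4, and its log2 fold change of 0.31 (SE 0.11, with an adjusted p of 0.0291 in limma) no longer passed when any of male 5, male 6, female 4 or female 5 was left out (limma adjusted p 0.0833 to 0.108). The gene model Gm43292 overlaps 8.05% of the exonic bases of Eif2ak3 on the opposite strand. The proteases that release ATF6 were called in opposite directions. Mbtps1, the site-1 protease, was lower (-0.43, 214 ± 16.0 against 158 ± 4.62, SD, n = 3, male first) and Mbtps2, the site-2 protease, was higher (0.38, 42.0 ± 1.70 against 55.1 ± 2.0, SD, n = 3). Mbtps2 shares 28.9% of its 50-base stretches with other genes, mainly Yy2, whose exons overlap its own, which leaves its value uncertain. Yy2 itself was read at 3.51 or less in every library.

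The regulatory subunits that direct a phosphatase to eIF2alpha, and so reverse the action of PERK, differed in opposite directions. Ppp1r15a, the stress-induced subunit also called GADD34, was at 110, 212 and 212 in male 4, 5 and 6 and at 71.8, 92.4 and 66.4 in female 4, 5 and 6. The groups did not overlap, but male 4 lay nearer to female 5 than to male 5 or male 6. The log2 fold change was -1.15 (SE 0.24, with an adjusted p of 0.0029 in limma) and ran from -1.46 without male 4 to -0.997 without male 5 or male 6, which ended the 2-fold call. Ppp1r15b, the constitutive subunit, was at 81.7, 54.6 and 56.3 against 125, 127 and 124. It had the largest increase among the members, 0.98 on the log2 scale (SE 0.14, with an adjusted p of 0.00031 in limma), and 1.16 without male 4. Its coefficient of variation was 1.16% with the female label and 23.6% with the male label. An unlisted gene model, Gm26616, overlaps its exons on the opposite strand, and whether the counting used strand is not given in the sources used here. Per kilobase of the longest coding transcript, the mean level of Ppp1r15a was 63.3 and that of Ppp1r15b 11.5 in the libraries labelled male, and 27.4 and 22.4 in those labelled female.

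The large chaperones were among the most abundant members per length, except Hyou1 (rank 14 in both groups), and their differences were small. Hspa5, the HSP70 chaperone BiP that also holds the sensors inactive, was at 2377, 2012 and 2080 in the libraries labelled male and 1686, 1745 and 1612 in those labelled female. The groups did not overlap, and the mean of the second was 78% of the first. The log2 fold change was -0.36 (SE 0.08, with an adjusted p of 0.00519 in limma). Hsp90b1, the ER HSP90 GRP94, was lower by a similar amount (-0.30, with the gene 1810014B01Rik on the opposite strand read at 0.812 or less), as was Hyou1 (-0.29), an HSP70 relative that exchanges the nucleotide of BiP. Hsp90b1 no longer passed without female 4 or without female 5. Calr, the lectin chaperone calreticulin, had a limma adjusted p of 0.0493 and a log2 fold change of -0.18, and lost its call under 9 of 15 alternatives. Canx, its membrane-bound relative calnexin, was not called (0.12, limma adjusted p 0.248; 1246, 1008 and 1059 against 1182, 1219 and 1184). Without male 4 it passed as higher (0.21, limma adjusted p 0.00149), and without male 5 it was 0.06. With equal library totals it also passed (0.20, limma adjusted p 0.0346).

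The J proteins and small cofactors of BiP differed unevenly, with 3 of 6 lower, 1 higher and 2 not called (34.6% of all genes were lower and 34.6% higher). Dnajb9, the cofactor ERdj4 that returns BiP to IRE1, was at 169, 158 and 157 against 87.9, 83.4 and 84.0. Each group was tight and they did not overlap, with the mean of the libraries labelled female at 52.7% of the other. The log2 fold change was -0.91 (SE 0.06, with an adjusted p of 3.22e-06 in limma). Sdf2l1, part of an ER chaperone complex with BiP, was at 35.9, 38.0 and 40.7 against 26.9, 28.5 and 25.2, a log2 fold change of -0.49 (SE 0.08). Manf is a secreted ER stress protein, and other genes, among them the listed Rbm15b, overlap 9.25% of its exonic bases. It was lower by a similar amount (-0.44) with 219 ± 1.39 against 161 ± 5.92 (SD, n = 3). The J protein Dnajb11 went the other way, at 0.19 (limma adjusted p 0.0205), a call that was lost when any of male 5, male 6, female 4 or female 5 was left out. Dnajc3, the inhibitor of PERK named p58IPK, did not pass (-0.19, limma adjusted p 0.0819, and -0.09 without male 4), although its groups did not overlap. Creld2, at 55.9, 51.1 and 50.9 against 55.6, 55.5 and 53.7, had a log2 fold change of 0.06 (limma adjusted p 0.424), which ran from 0.04 without male 6 to 0.10 without male 4, and its groups overlapped.

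Among the disulfide enzymes, 4 of 5 were called and all 4 were lower (34.6% of all genes were lower). Ero1l, the oxidase ERO1-alpha that recharges protein disulfide isomerase and is known to be induced by hypoxia-inducible factor, had the largest difference among the members with all 6 libraries, though without male 4 that of Ppp1r15a was larger (-1.46 against -1.08). It was at 8938, 5442 and 5844 in male 4, 5 and 6 and at 2486, 2649 and 2894 in female 4, 5 and 6. Every library labelled male lay above every one labelled female, and male 4 stood far above the others of its group. The log2 fold change was -1.30 (SE 0.18, with an adjusted p of 0.000248 in limma). The partner it oxidizes, P4hb (protein disulfide isomerase itself), was at 2295, 1987 and 2127 against 1307, 1336 and 1222. The groups were well apart, at -0.73 on the log2 scale (SE 0.08, with an adjusted p of 6.22e-05 in limma).

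Pdia4, a multidomain isomerase of the BiP complex, was at 676, 645 and 668 against 380, 397 and 384, a log2 fold change of -0.77 (SE 0.06, with an adjusted p of 5.67e-06 in limma). The replicates varied by 2.46% (coefficient of variation, male label) and 2.24% (female label), so the groups were separated by many times their spread. Pdia6 was lower by less (-0.22, limma adjusted p 0.0242), and its call was lost under the replicate block, with equal totals and when any library labelled female was left out. Pdia3, the isomerase that works with calnexin and calreticulin, was at 1743, 1534 and 1548 against 1528, 1526 and 1509. These values nearly met, and the log2 fold change of -0.08 did not pass (SE 0.07, with an adjusted p of 0.365 in limma). Without male 4 it was -0.02.

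**Figure D3:**
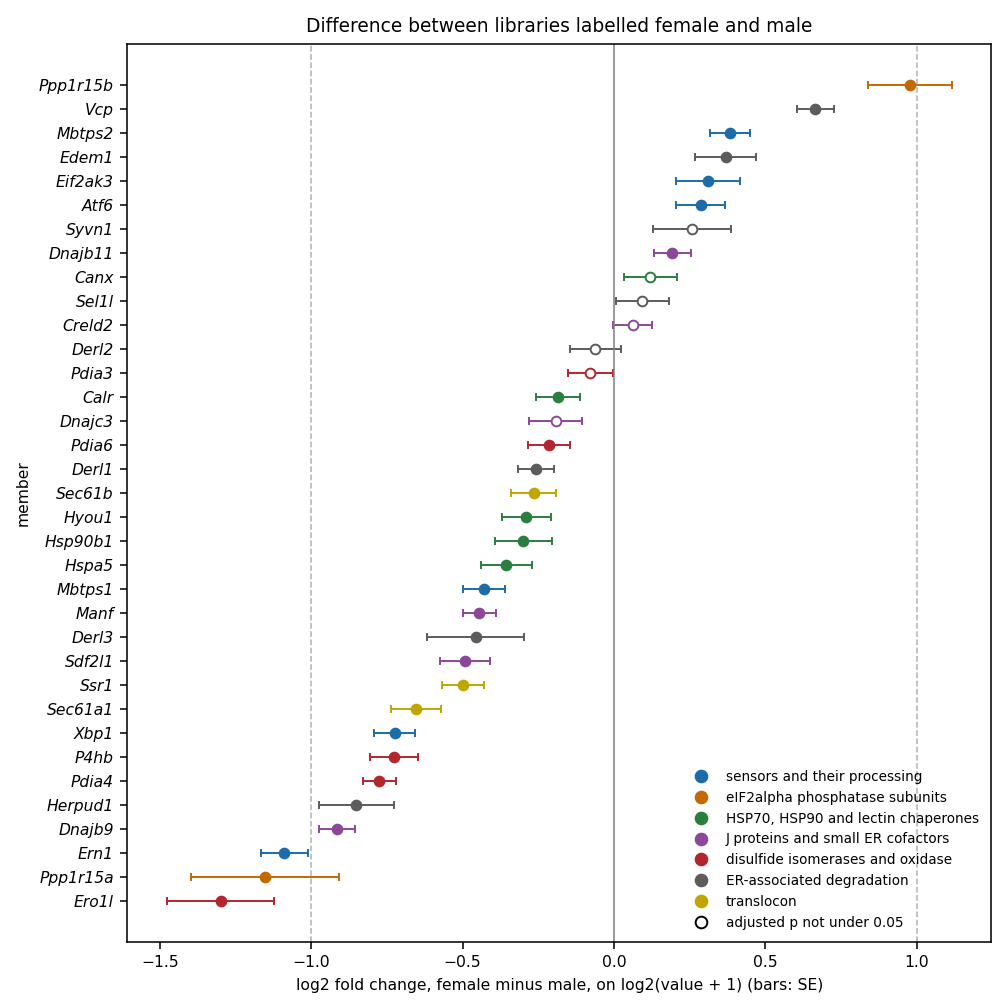
log2 fold change of each member, libraries labelled female minus those labelled male, on log2(value + 1) (x axis; bars are the SE), sorted by size (y axis) and coloured by role. Filled points passed a limma adjusted p of 0.05, open points did not, and dashed lines mark 2-fold; Ero1l, Ppp1r15a and Ern1 lie beyond the left line and no member beyond the right.

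ER-associated degradation held 8 members, of which 2 were higher, 3 lower and 3 not called. The 62.5% called was near the 69.3% of all genes. Herpud1, which gathers the ubiquitin ligase complex and whose RNA rises in ER stress, was at 104, 137 and 142 against 67.1, 77.6 and 65.0. The groups did not overlap, with male 4 again the nearest of its group, and the log2 fold change was -0.85 (SE 0.12, with an adjusted p of 0.000372 in limma). Vcp, the ATPase that pulls substrates out of the membrane, was at 650, 594 and 600 against 958, 994 and 971. It was higher in every library labelled female, by 0.66 on the log2 scale (SE 0.06, with an adjusted p of 2.68e-05 in limma). Vcp shares 40.5% of its 50-base stretches with the related sequence Vcp-rs, which could take or lend reads, so its level is uncertain.

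Edem1, a lectin that extracts glycoproteins from the folding cycle, was also higher (0.37, limma adjusted p 0.0105), and Derl1, a channel subunit, was lower (-0.26, limma adjusted p 0.00438). The ligase Syvn1 (HRD1) and its partner Sel1l were not called, at 0.26 and 0.09 (limma adjusted p 0.108 and 0.361). In both, male 4 lay at or above the libraries labelled female and male 5 and male 6 below them, and without male 4 both passed (0.41 and 0.19, adjusted p of 0.000352 and 0.00299 in limma). Both also passed with all libraries under quantile normalization (0.32 and 0.20, limma adjusted p 0.0398 and 0.0318). Syvn1 passed with equal totals as well (0.33, limma adjusted p 0.0287). Derl2 was the least different of the group, at 57.6, 48.8 and 52.2 against 54.2, 50.04 and 47.4 (-0.06, limma adjusted p 0.526, and -0.12 without male 5). Derl3 was nearly absent, with 15 to 52 reads a library, at 1.20, 1.72 and 1.84 against 1.25, 0.707 and 0.712. It reached the filter through all 3 libraries labelled male and only female 4 of the others. Its log2 fold change of -0.46 (SE 0.16, with an adjusted p of 0.0314 in limma) therefore rests on few reads and on groups that overlap, and it lost its call under 6 of 14 alternatives. The pseudocount compresses its size, which was -0.79 with a pseudocount of 0.1, -0.83 in edgeR and -0.84 in DESeq2.

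The 3 translocon members were all lower (34.6% of all genes were), Sec61b not under every scaling. Sec61a1, the channel subunit, was at 416, 342 and 351 in the libraries labelled male and 243, 234 and 225 in those labelled female. The groups did not overlap, and the log2 fold change was -0.65 (SE 0.08, with an adjusted p of 0.000153 in limma). The gene model Gm44170 overlaps 8.16% of the exonic bases of Sec61a1 on the opposite strand. Ssr1, a subunit of the translocon-associated TRAP complex, was at 479, 407 and 441 against 310, 312 and 314. Its log2 fold change was -0.50 (SE 0.07, with an adjusted p of 0.000275 in limma), again with separate groups. Sec61b, a small subunit of the channel, was lower by 0.27 (56.6 ± 0.710 against 47.0 ± 3.67, SD, n = 3; limma adjusted p 0.0115), and it shares 17.4% of its 50-base stretches with other genes, among them the gene models Gm10320 and Gm5870. With equal totals it no longer passed (-0.19, limma adjusted p 0.0556).

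Levels can be compared between members only per length. Per kilobase of the longest coding transcript, the 6 most abundant members were the same genes in both groups, in another order. In the mean of the libraries labelled male, Ero1l stood at 1526 normalized reads per kilobase, Hsp90b1 at 1048, Calr at 895, P4hb at 747, Hspa5 at 587 and Pdia3 at 581. In the mean of those labelled female, Hsp90b1 led at 849, followed by Calr at 786, Ero1l at 606, Pdia3 at 549, Hspa5 at 458 and P4hb at 450. Hspa5 and Pdia3 in the first order, and Hspa5 and P4hb in the second, lay within the SD of their group. The sensors were among the least abundant, with Eif2ak3 at 6.44 and 8.0, Ern1 at 13.9 and 6.45, and Atf6 at 13.5 and 16.4 (male first). Only Derl3 was lower than all sensors in both groups, at 1.20 and 0.672.

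**Figure D4:**
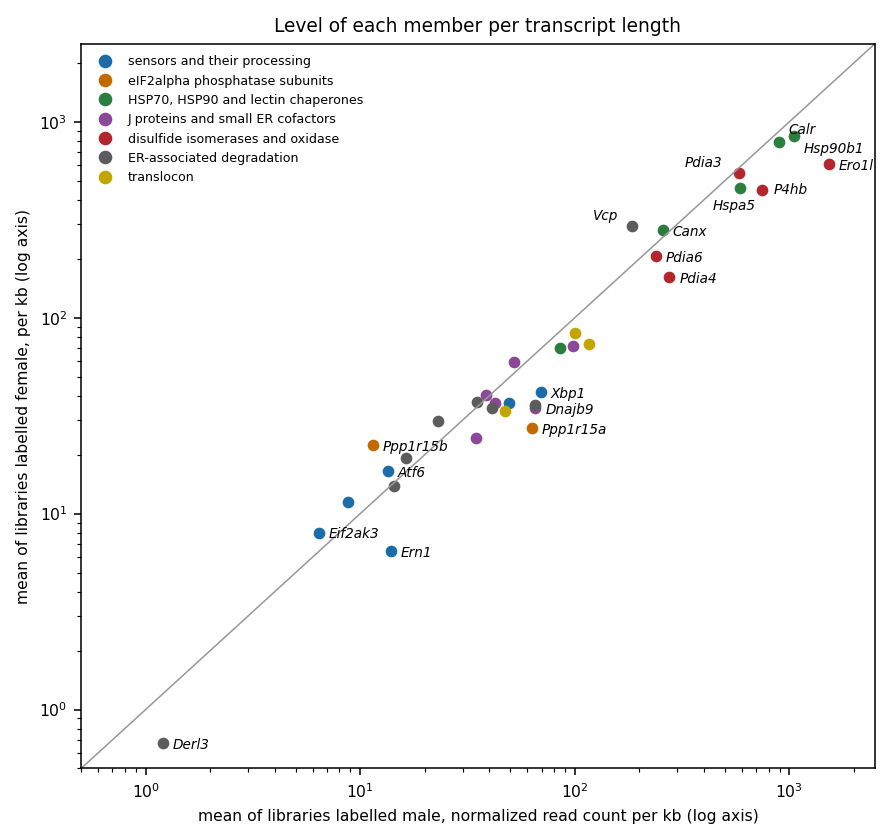
Mean level of each member per kilobase of its longest coding transcript in the libraries labelled male (x axis) and labelled female (y axis), both log axes, in normalized read count per kilobase, coloured by role. The line marks equal levels. Ero1l, the highest member on the x axis at 1526, lies at 606 on the y axis, and Derl3 lies below all others.

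Members with and without an ERSE were compared as a description. The 9 with the element had a median log2 fold change of -0.19, with 5 called lower and 0 higher, and the 20 matched members without it a median of -0.46, with 12 lower and 5 higher (34.6% of all genes in each direction). Of the 5 lower with the element, Hsp90b1, Calr, Pdia6 and Derl3 lost their call under some alternatives, and only Hspa5 kept it under all that were run. Among those with the element, Derl3 (-0.46) and Hspa5 (-0.36) were the lowest and Syvn1 (0.26) the highest. The 3 members lower by at least 2-fold held no exact ERSE in this window. The 6 members with GACGTG ran from Ero1l (-1.30) to Vcp (0.66), with a median of -0.43.

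The PERK branch and the wider integrated stress response were read in 13 other genes, all tested, of which 5 were called higher and 7 lower (34.6% of all genes in each direction). Atf4, the transcription factor whose translation PERK activity favours, was not called (0.21, limma adjusted p 0.213), at 200, 283 and 297 against 300, 316 and 274. Male 4 was the lowest, and the value was 0.03 without it and 0.32 without male 6. Its known targets differed in both directions. Ddit3, the pro-apoptotic factor CHOP, was at 157, 186 and 185 in the libraries labelled male and 51.6, 45.8 and 47.5 in those labelled female. That is a wide gap, with a log2 fold change of -1.84 (SE 0.08, with an adjusted p of 4.85e-07 in limma). Trib3, a pseudokinase induced by CHOP, was lower by less (-0.71), at 57.6 ± 10.7 against 34.5 ± 2.81 (SD, n = 3).

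Chac1, a glutathione-degrading enzyme that is also an ATF4 and CHOP target, went the other way. It was at 2.07, 2.82 and 2.93 against 12.3, 11.2 and 9.74, all libraries labelled female above all others, with a log2 fold change of 1.75 (SE 0.14, with an adjusted p of 9.58e-06 in limma). Its level was low in both groups. Atf3, a stress-induced factor, was at 18.0 ± 6.51 against 4.52 ± 0.526 (SD, n = 3; -1.72), with male 4 at 10.6 between the other libraries of its group and those labelled female. Eif2ak4, the amino acid sensing kinase GCN2, was higher (0.62), as was Eif2s1, which encodes eIF2alpha (0.44).

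**Figure D5:**
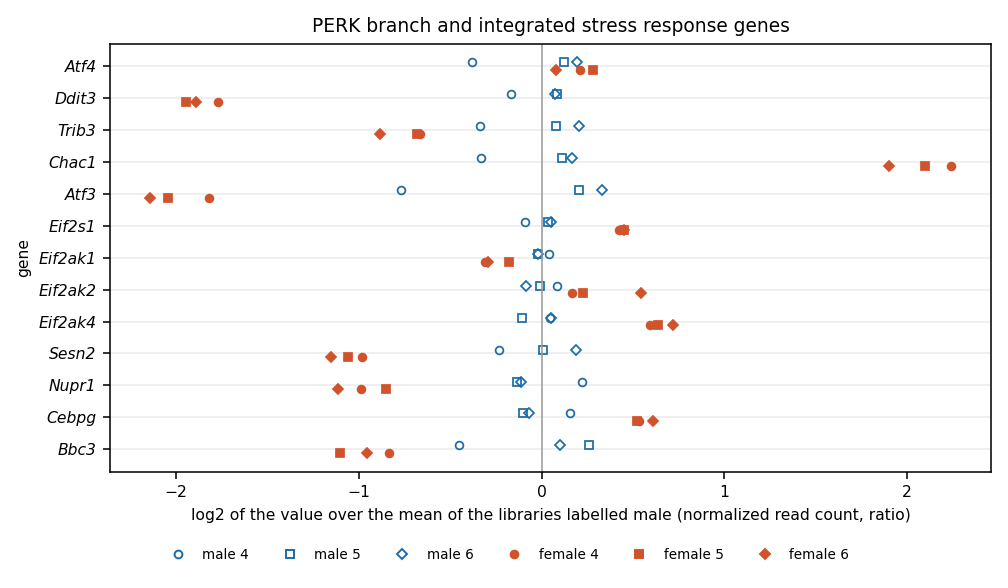
The 13 genes of the PERK branch and integrated stress response in each library, as the log2 ratio to the mean of the libraries labelled male (x axis); symbols as in the plot of members by library. The libraries labelled female lie near -2 for Ddit3 and Atf3 and near 2 for Chac1, and those of Atf4 overlap with the libraries labelled male.

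Across the 8 lists of other ER pathway genes, 121 genes were tested, with 27 called higher and 51 lower (34.6% of all genes in each direction) and a median log2 fold change of -0.08. Of these, 1 was higher by at least 2-fold (Chac1, where 8.51% of all genes were) and 6 were lower (12.1% of all genes), both counts below the share of all genes. Among the relatives and partners of ATF6 and IRE1, 4 of 13 were higher and 5 lower. Of the 5, Creb3l4 had as few as 10 reads in a library and reached the filter only through the libraries labelled male. Atf6b, the relative of Atf6, was lower (-1.06, 52.8 ± 4.09 against 24.8 ± 1.07, SD, n = 3) as was Map3k5, the kinase ASK1 downstream of IRE1 (-1.42). Map3k5 was low throughout, at 3.03, 4.54 and 3.78 against 0.415, 0.884 and 1.09 with as few as 10 reads in a library, and it reached the filter through the libraries labelled male. Nfya, a subunit of the NF-Y factor that shares the ERSE with ATF6, was higher (0.94, 27.3 ± 1.34 against 53.3 ± 0.436, SD, n = 3), and so was the ER membrane protein gene Wfs1 (0.67).

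Beside the 34.6% of all genes called in each direction, 8 of the 13 remaining disulfide enzymes were lower and 2 higher. Txndc12 had the largest decrease (-1.20, 81.9 ± 4.44 against 35.2 ± 2.71, SD, n = 3), followed by Tmx4 (-0.77). The 2 higher were Ero1lb, the paralogue of Ero1l (0.58, 7.48 ± 1.05 against 11.6 ± 1.17, SD, n = 3), and Pdia5 (0.44). Other J proteins, exchange factors and prolyl isomerases had 8 of 17 lower, led by Cnpy3 and Fkbp7 (both -0.75), and 3 higher, led by Dnajb14 (0.64) and Cdnf (0.36), the paralogue of Manf. Other subunits of the translocon, signal peptidase and oligosaccharyltransferase had 13 of 22 lower and 2 higher, with Spcs2 (-0.88) and Ssr2 (-0.71) at the low end and Spcs3 (0.78) and Sec62 (0.20) higher.

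Of the 18 other degradation genes, 7 were higher and 3 lower, the first count near the 34.6% of all genes called higher. The conjugating enzyme Ube2j1 was higher (0.45), and the glycan-reading lectins Erlec1 (-0.68) and Os9 (-0.66) were lower. Glycan trimming and glycoprotein quality control had 4 of 11 lower and 2 higher (34.6% of all genes in each direction). The mannosidase-like Edem2 was lower (-0.76) and its paralogue Edem3 higher (0.51). The folding sensor Uggt2 was higher (0.90), whereas its paralogue Uggt1 was not called (-0.01, limma adjusted p 0.94). The cargo receptor Lman2 was lower (-0.67). Of the 14 genes of the ER to Golgi coat, 9 were not called (35.7% called, against 69.3% of all genes), 2 were higher (Sec24a and Sec23a, both 0.54) and 3 lower, the largest of them Sar1b (-0.46) and Sec23b (-0.26).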

How the data were processed

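Poly(A) RNA sequencing of 6 libraries was analysed, 3 labelled male and 3 labelled female. Per the file headers, each library has a signal column of read counts that the authors normalized. Dividing a column by 1 factor gave whole reads for 100% of its values (within 0.01). The submitters' processing notes name Bowtie2, RSEM, edgeR and the build mm39, with no version, role or order. A signed fold change, treated as a score, and a p-value with its false discovery rate were also deposited for each gene. The test behind them is not given in the sources used here. The rule behind the listed genes is not stated.

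A linear model in limma 3.58.1 (R 4.3.3, moderated with a trend) was fitted to log2(value + 1). It covered the 12568 genes that reached 1 in 3 or more libraries, and adjusted p-values (Benjamini-Hochberg, over these genes) under 0.05 were called. The pseudocount understates the change of low genes. Alternatives used edgeR 4.0.16 and DESeq2 1.42.0 on recovered reads, another pseudocount, other filters and scalings, a replicate block and leaving out each library. The scripts were tested on simulated data. The members, the lists and the alternatives were chosen with earlier results of these data known; the alternative with equal totals was added after seeing the values here. Named genes were the sensors, Xbp1, Hspa5, members changed by at least 2-fold, the 10 next largest and the 3 smallest changes, Atf4, Ddit3, Trib3 and Chac1, and up to 2 called genes in each direction of each pathway list, with Pecam1, Xist and 4 Y-linked genes as checks. Other members are given by role. A pathway gene that this rule names is not reported here. Eif2s1, Uggt1, Creb3l4 and the values of Canx by library were chosen after they were seen.

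Lengths and shared 50-base stretches came from GENCODE M21 (GRCm38) by symbol. Promoters and their coordinates are those of RefSeq GRCm38.p6, not of mm39. Atf6, Hyou1, Manf, Derl1, Ppp1r15b and Sec61a1 were not matched to a promoter. Protein sequences were not used here.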

Additional observations from a re-analysis of the deposited data

How the results depend on the processing

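Of 584 values recomputed for the 35 members and Atf4, Ddit3, Trib3 and Chac1, 545 kept direction and call, and 28 of the 39 genes did so under every alternative run. The exceptions were Eif2ak3, Hsp90b1, Calr, Canx, Dnajb11, Pdia6, Syvn1, Sel1l, Derl2, Derl3 and Sec61b. In the higher direction, 1 member (Ppp1r15b) passed with at least 2-fold in place of 0 under quantile normalization and with equal totals, and the fits without 1 library gave 0 to 1; the cause was not tested. Derl2, not called, changed sign to 0.012 with equal totals. Equal totals moved the median of all genes from 0.01 to 0.09 and that of the members from -0.27 to -0.19, with 9 members higher and 18 lower, and 55.7% of all calls higher in place of 50.01%. Without 1 library the members called lower numbered 17 to 21 and those higher 5 to 10, with 7373 to 9113 genes called in all. Without male replicate 5 or without male replicate 6, 2 members in place of 3 were lower by at least 2-fold, as Ppp1r15a came to -0.997 in both.

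Replicate numbers gave no pairing: deviations of same-numbered libraries correlated at -0.09, -0.03 and -0.17, and no library correlated best with its own number. With the replicate block 18 members were lower and 7 higher, of 8314 genes called in place of 8704. Among the members, counting error bears most on Derl3, at 15 to 52 reads a library.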
